A study of Mus musculus with 16 samples.

Results

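The empty-vector TM4 cells are 6 of the 16 samples of this RNA-Seq series. They were chosen by their label and their columns in the table of raw counts (EV replicates 1 to 6). TM4 is an established mouse cell line described as Sertoli-like, derived from the supporting cells of the seminiferous tubule. In the series it was transfected with a killifish *gdf6Y* expression plasmid (5 samples), with the *gdf6Y* variant *del9* (5 samples) or, here, with pcDNA3.1-HA that carries no insert. All EV cells thus carried 2.5 µg of plasmid DNA per well and Lipofectamine 3000, grew in DMEM with 10 % FBS and were lysed 24 h after transfection. No untransfected cells are part of the series, so every level below is that of transfected cells. The labels do not state whether the 6 replicates came from separate cultures or passages, and the spread between them may be technical.

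Sertoli cells surround and nourish the germ cells. In the embryonic testis they are the cells in which *Sry* and then *Sox9* act, and they secrete AMH, inhibin and the KIT ligand. The questions put to the EV samples were therefore which genes carried most of the RNA, which regulators, receptors and secreted proteins were present, which lineage genes had no read, and how far the 6 samples differed.

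The 6 libraries held between 21486850 and 25844048 deduplicated reads on genes (median 24363806.5). Levels are given as counts per 1000000 of these reads (CPM), and as CPM per exonic kilobase (CPM per kb) where genes are compared with each other, since longer transcripts collect more reads. An order given in CPM is one of reads taken. A gene was taken as expressed where it had at least 1 CPM in every EV sample, which is 21.5 to 25.8 reads. A gene without a read in all 6 samples may still have a level of up to 0.0207 CPM, the limit of 3 reads over the 6 libraries, which covers counting error only. In bulk RNA, few cells with a high level and many cells with a low level cannot be told apart. EV replicates 2 and 5 deviated together from the other samples, and EV replicate 1 stood apart in ribosomal and mitochondrial RNA. Without EV replicates 2 and 5 the number of expressed genes was 11266 in place of 11213, and the values of both are given with the spread between samples.

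Of 56748 genes in the table, 24428 had a read in at least 1 EV sample and 15445 in every sample. Expressed were 11213 genes, of which 10585 were protein-coding and 353 long non-coding. That is 48.9% of the 21630 protein-coding genes, whereas 30.4% of them had no read and 4474 had reads below the limit. The median expressed protein-coding gene had 42.05 CPM, or 6.13 CPM per kb. The middle of this distribution was broad, with quartiles of 2.45 and 14.48 CPM per kb, and its top 5% lay above 56.85 CPM per kb. The 10 most abundant genes held 4.22% ± 0.0899 (SD, n = 6) of the reads, the 100 most abundant held 16.54% ± 0.105, and the 1000 most abundant held 49.69% ± 0.111.

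The most abundant transcripts encoded the machinery of translation, mitochondrial respiration, the cytoskeleton, glycolysis and the extracellular matrix. *mt-Co1*, a mitochondrially encoded subunit of cytochrome c oxidase, took the most reads, with 5656 CPM in the lowest, 7401 in the median and 8327 in the highest sample. It was followed by the elongation factor *Eef1a1* (6160, 6214 and 6341 CPM), the chaperone *Hsp90ab1* (5119, 5226 and 5419 CPM) and the elongation factor *Eef2* (4102, 4140 and 4165 CPM). These nuclear genes varied far less between samples than *mt-Co1*, whose low value came from EV replicate 1. Next came β-actin *Actb* with a mean of 3824 CPM ± 146 (SD, n = 6), fibronectin *Fn1* with 3665 ± 144, the poly(A)-binding protein *Pabpc1* with 3245 ± 33.1 and thrombospondin 2 *Thbs2* with 2899 ± 105. Pyruvate kinase *Pkm* (2853 ± 115) and the type I collagen chains *Col1a2* (2789 ± 75.2) and *Col1a1* (2135 ± 61.2) were also among the 20 genes with the most reads.

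Corrected for length, the order changed in favour of short transcripts. After *mt-Co1* (4691 CPM per kb ± 597, SD, n = 6) and *mt-Nd1* (2444 ± 148) came the ribosomal protein *Rplp1* (2014 ± 47.5), *mt-Cytb* (1640 ± 182), the ribosomal protein *Rpl8* (1501 ± 18.6) and galectin 1 *Lgals1* (1418 ± 21.2). Mitochondrially encoded genes made up 5 of the 20 highest and ribosomal protein genes 6. The remaining members included the secreted matricellular protein *Ccn1* (683 ± 22.7), the calcium-binding protein *S100a6* (661 ± 11.95), ferritin light chain *Ftl1* (654 ± 18.98) and β-tubulin *Tubb5* (551 ± 9.60). In 9 of the 19 neighbouring pairs the ranges of the 6 samples overlapped, among them *Actb* and *Eef1a1* or *Ccn1* and *Rpl32*. Ranges leave out that both genes were measured in the same samples, so overlap alone does not settle the order of a pair. Ribosomal protein, actin, tubulin and ferritin genes have near-identical pseudogenes, and reads that fit several loci were discarded, so their levels are uncertain and can be too low. The order also depends on the length used, and per kilobase of coding sequence *S100a6* came first at 5823 CPM per kb.

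**Figure D1:**
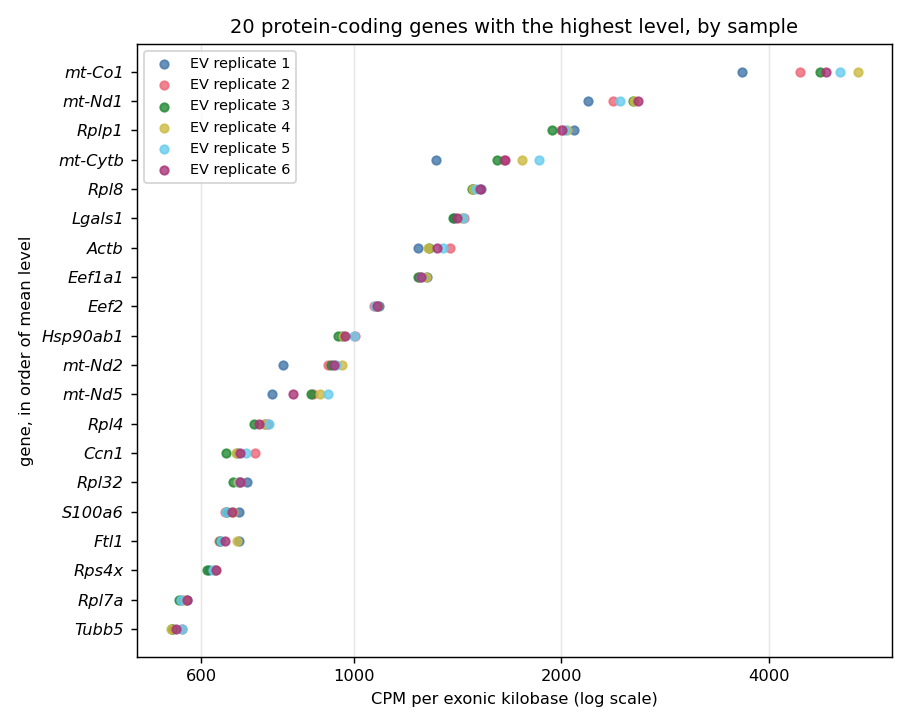
Level of the 20 highest protein-coding genes in CPM per exonic kilobase (horizontal, log scale), with a point for each of the 6 EV samples. EV replicate 1 is the lowest sample for *mt-Co1*, *mt-Nd1*, *mt-Cytb*, *mt-Nd2* and *mt-Nd5*, whereas the nuclear genes lie close together.

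The promoters of 3 of these genes are shown because they hold the letters TATAAA, the core of the TATA box, at or near the annotated start and differ in their CpG content. Each runs from 250 bases before the GENCODE start to the 6th base from it, was read from GRCm39 and is written 5′ to 3′ on the strand of the gene, with TATAAA in capitals. *Ccn1* lies on the minus strand (chr3:145355733-145355988), *Eef2* on the plus strand (chr10:81012215-81012470) and *Col1a1* on the plus strand (chr11:94826800-94827055).
Ccn1: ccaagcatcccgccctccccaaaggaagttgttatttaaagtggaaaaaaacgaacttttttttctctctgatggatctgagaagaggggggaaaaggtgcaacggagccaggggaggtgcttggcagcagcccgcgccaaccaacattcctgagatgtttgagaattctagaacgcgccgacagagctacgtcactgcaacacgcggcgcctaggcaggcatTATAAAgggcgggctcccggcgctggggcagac
Eef2: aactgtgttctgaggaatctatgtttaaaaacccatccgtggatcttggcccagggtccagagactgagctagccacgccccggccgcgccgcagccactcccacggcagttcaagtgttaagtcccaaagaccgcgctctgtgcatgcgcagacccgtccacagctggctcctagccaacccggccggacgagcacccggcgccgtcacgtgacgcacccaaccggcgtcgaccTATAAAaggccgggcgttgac
Col1a1: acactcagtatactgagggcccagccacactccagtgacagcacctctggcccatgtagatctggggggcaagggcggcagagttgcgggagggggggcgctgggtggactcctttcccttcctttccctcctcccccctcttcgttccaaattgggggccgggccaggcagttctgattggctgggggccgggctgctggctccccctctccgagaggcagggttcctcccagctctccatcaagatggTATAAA

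In *Ccn1* the motif begins 27 bases before the start, in *Eef2* 15 bases before it and in *Col1a1* at the start itself. The observed to expected CpG ratio of the 300-base window that ends 50 bases into the gene was 0.823 in *Ccn1*, 1.11 in *Eef2* and 0.358 in *Col1a1*. Of the most abundant genes named above or in the plot of the 20 highest, 24 had such a window and 8 of these held TATAAA on either strand. The letters were in 13.2% of the 21617 protein-coding windows, in 7.41% of those of expressed genes and in 13.5% of those of the 200 genes highest per kb. Placed between 40 and 20 bases before the start on the sense strand, it was found in 1.87% of all windows, in 4.11% of genes without a read and in 0.397% of expressed genes. CpG content also differed between these classes. An observed to expected CpG ratio of at least 0.6 was found in 13.1% of the 6566 windows of genes without a read, in 25.5% of genes with reads below the limit and in 69.7% of the 10578 windows of expressed genes. Among expressed genes this share was 71.3% for transcription factors, 48.9% for receptors and 32.9% for secreted factors. A match describes these letters only, and nothing was measured here about factors bound to them.

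Transcription factors bind DNA and set which genes a cell type transcribes. From a list of 303 such genes, 181 were expressed and 67 had no read. Their median level was 6.77 CPM per kb, close to that of all expressed protein-coding genes, and only 10 of the 181 exceeded 32.9 CPM per kb, the level of the top 10% of expressed protein-coding genes. The factor with the highest level was *Atf4*, the effector of the integrated stress response, with 444 CPM in the lowest, 457 in the median and 470 in the highest sample (193 CPM per kb). All 6 samples thus lay within a narrow range. *Jund* (66.9 CPM per kb ± 1.84), a subunit of AP-1, *Myc* (53.2 ± 1.48), a driver of growth, and the stress-related factors *Atf5* (52.5 ± 2.03) and *Nfe2l1* (52.1 ± 2.35) came next among the genes named by rule.

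Stress, growth and immediate early factors were nearly all present. Expressed were 19 of 21 stress and metabolic factors, 16 of 17 factors of the MYC and E2F group and 12 of 14 AP-1 and immediate early factors. The hypoxia factor *Hif1a* had 48.1 CPM per kb ± 3.62, and *Tfdp1*, the partner of the E2F proteins, had 44.6 ± 1.92. Within AP-1, the FOS-related subunits *Fosl2* (37.9 ± 0.818) and *Fosl1* (31.1 CPM per kb) were high, whereas *Fos* itself reached 1.08 CPM per kb and *Fosb* 0.919. *Fos* and *Fosb* fall outside the 4 highest members of the list and were named after their values were seen. No read was found for *Mycl* or for *Cebpa*, a factor of adipocytes and hepatocytes. Among 39 signal-regulated factors 34 were expressed, led by *Irf7* (27.3 ± 1.40) and *Rela* (23.7 ± 0.719), and *Stat4* and *Irf8*, both factors of blood cells, had no read. Of 17 KLF genes 11 were expressed, with *Klf6* highest (13.5 ± 0.395).

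Of 42 listed mesenchymal regulators 19 were expressed (45.2%) and 11 had no read (26.2%). These shares are near the 48.9% and 30.4% of all protein-coding genes. The highest were *Twist1* (31.2 CPM per kb ± 1.40), *Prrx1* (26.1 ± 0.431), *Foxc1* (23.8 ± 1.05) and *Snai2* (16.0 ± 0.739), which are known from mesenchyme of limb, head and trunk. *Prrx1* was the most uniform of them, with 426, 429 and 445 CPM in the lowest, median and highest sample. Without a read were, among others, *Tcf21*, *Foxd1*, *Tbx5*, *Alx1*, *Pitx1* and *Meox2*.

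The gonad-determining factors split into a group that was expressed and a group without a read. Of 24 listed, 11 were expressed (45.8%) and 11 had no read (45.8%), against 48.9% and 30.4% of all protein-coding genes. *Emx2*, which is required for the early urogenital ridge, had 66.2, 71.2 and 74.0 CPM in the lowest, median and highest sample (23.4 CPM per kb). The orphan receptor *Nr2f2* reached 8.56 CPM per kb ± 0.282 and *Zfpm2*, the cofactor of GATA4 in testis formation, 7.53 ± 0.122. *Gata4* itself lay at 5.94 ± 0.0381. Among those without a read were *Wt1*, *Lhx2*, *Sox8*, *Sox10*, *Dmrt1*, *Foxl2*, *Nr0b1*, *Sry* and *Tcf21*, which includes factors of both the testis and the ovary. From the separate SOX list, *Sox4* (20.1 ± 0.592) and *Sox12* (13.3 ± 0.303) were expressed at a substantial level and *Sox5* at 0.209 ± 0.0182 CPM per kb, while 11 of 16 had no read.

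HOX genes record the position of a cell along the body axis, with higher paralog numbers used further towards the tail. Of the 39 HOX genes 29 were expressed and 3 (*Hoxa13*, *Hoxd1* and *Hoxd12*) had no read. *Hoxb9* was highest (74.6, 79.1 and 82.6 CPM in the lowest, median and highest sample, 29.2 CPM per kb), followed by *Hoxa11* (59.9, 64.6 and 68.9 CPM, 27.7 CPM per kb). The ranges of these 2 genes per kb overlap and the genes were not compared within samples, so neither is shown to be higher. The median level was 1 CPM per kb for paralogs 1 to 5 (15 genes), 7.55 for paralogs 6 to 9 (12 genes) and 3.33 for paralogs 10 to 13 (12 genes). Within the A cluster levels were highest at *Hoxa10* (13.4 CPM per kb) and *Hoxa11*, and in the C cluster at *Hoxc11* (11.4). In the D cluster *Hoxd8* (9.76), *Hoxd9* (6.57) and *Hoxd10* (5.19) led, whereas *Hoxd13* had 0.0268 CPM. An anterior to posterior series was interrupted at *Hoxc8*, which had 0.0228 CPM per kb between the expressed neighbours *Hoxc6* (7.28) and *Hoxc9* (2.56 CPM per kb). *Hoxc8*, *Hoxc9* and *Hoxd13* were named after their values were seen. By contrast, only 4 of 30 PAX, POU and LIM genes were expressed, with *Pou6f1* (4.84) and *Lhx6* (2.56 CPM per kb) highest and *Pax1*, *Pax3*, *Pou5f1*, *Lhx1* and *Isl1* among 15 without a read.

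**Figure D2:**
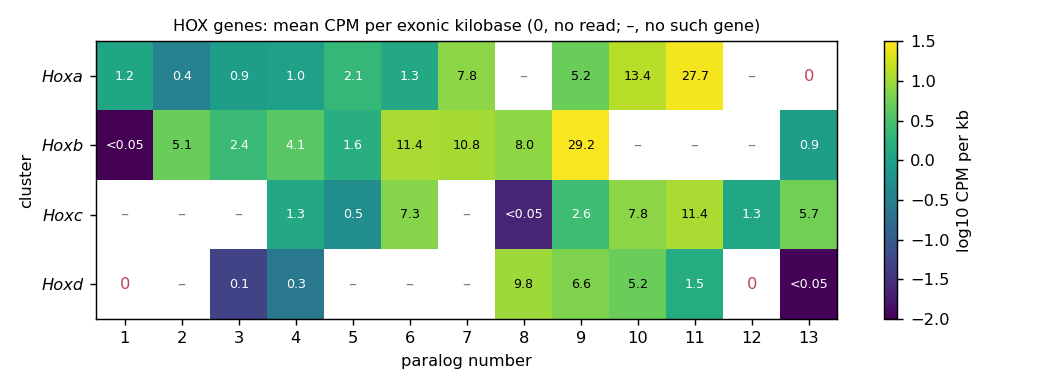
Mean level of the 39 HOX genes in CPM per exonic kilobase over the 6 EV samples, by cluster (rows) and paralog number (columns), with colour on a log10 scale. The highest values are *Hoxb9* (29.2) and *Hoxa11* (27.7), and red zeros mark the 3 genes without a read.

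Nuclear receptors are transcription factors that bind hormones and other small lipophilic molecules. Of 48, 24 were expressed and 12 had no read. The retinoic acid receptor *Rarg* was highest (30.6 CPM per kb ± 0.674), followed by the glucocorticoid receptor *Nr3c1* (20.03 ± 0.366), the clock component *Nr1d1* (17.4 ± 0.821) and *Nr2f6* (14.4). The estrogen receptor gene *Esr1* had 138, 149 and 154 CPM in the lowest, median and highest sample (10.6 CPM per kb). *Pgr* had 0.193 CPM per kb. *Esr2* stayed below the limit with 0.435 CPM. *Esr1*, *Pgr* and *Esr2* were named after their values were seen. *Pparg*, *Rora*, *Thrb*, *Nr3c2*, *Nr5a2* and *Nr0b1* were among the genes without a read.

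Receptors pass signals from outside the cell to its interior. Of 357 listed receptor genes 135 were expressed, 128 had reads below the limit and 94 had no read. The highest per kb was *Itgb1*, the β1 chain shared by most matrix-binding integrins, with 1265, 1274 and 1288 CPM in the lowest, median and highest sample (214 CPM per kb), with almost no spread. Its partners *Itga5* (52.4 CPM per kb ± 1.38), *Itga3* (38.0 ± 0.544) and *Itgav* (26.9 ± 0.470), which bind fibronectin, laminin and vitronectin, were the next highest of 12 expressed among 26 integrin genes. The leukocyte integrin chains *Itga4*, *Itgad* and *Itgam* had no read.

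Of 54 receptor tyrosine kinases 21 were expressed and 10 had no read. *Axl*, a receptor of the TAM family that binds GAS6, was the highest of them with 867, 881 and 902 CPM (96.1 CPM per kb). It was followed by the HGF receptor *Met* (38.0 ± 1.098), the collagen receptor *Ddr2* (35.2 ± 0.984) and the ephrin receptor *Epha2* (32.8 ± 0.844). The ranges of *Met* and *Ddr2* do not overlap, nor do those of *Ddr2* and *Epha2*. *Ntrk2*, *Erbb4*, *Tek* and *Alk* had no read. For the TGF-β family 10 of 14 receptors were expressed and all had reads. *Tgfbr2* (29.4 ± 0.360) and the co-receptor *Tgfbr3* (24.2 ± 1.76) were highest, followed by *Bmpr1a* (16.5 ± 0.188) and *Bmpr2* (7.14 ± 0.282).

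Of the 24 Notch, Hedgehog and Wnt receptors 15 were expressed. The R-spondin receptor *Lgr6* (30.7 ± 0.931) and the Wnt receptor *Fzd2* (29.9 ± 1.26) lay close together and were not compared within samples. The Hedgehog transducer *Smo* (22.7 ± 0.364) and *Fzd5* (12.5 ± 0.264) followed. *Lgr5*, a paralog of *Lgr6*, had no read. Among guidance receptors 10 of 21 were expressed, led by *Plxnb2* (80.6 ± 2.47) and *Nrp2* (23.4 ± 2.07). In the list of lipoprotein and scavenger receptors 12 of 19 were expressed, with *Lrp1* (23.7 ± 1.64) and *Vldlr* (19.6 ± 1.15) highest, whereas *Cd36*, *Msr1* and *Lrp1b* had no read.

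Immune receptors differed by family. Of 38 cytokine receptors 19 were expressed (50.0%), near the 48.9% of all protein-coding genes. *Il1rl1*, which encodes the IL-33 receptor ST2, had 292, 303 and 329 CPM (44.7 CPM per kb), and the growth hormone receptor *Ghr* had 15.0 CPM per kb ± 0.400. The receptor chains of blood cells *Il2ra*, *Il7r*, *Csf2ra*, *Csf2rb* and *Csf3r*, and *Prlr*, had no read. In the TNF receptor list 10 of 23 were expressed, with *Tnfrsf12a* (111 ± 4.17), *Ltbr* (43.2 ± 1.09) and *Tnfrsf1a* (32.5) highest and *Cd40* without a read. The toll-like receptors had 5 of 12 expressed, with *Tlr4* highest (7.44 ± 0.614). Among 18 chemokine receptors only the scavenging receptor *Ackr3* was expressed (0.503 CPM per kb ± 0.0455), and 9 had no read, *Cxcr4* and *Ccr2* included.

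G protein-coupled receptors were few. Of 37 receptors for hormones and peptides 6 were expressed and 18 had no read, among them *Lhcgr*, *Gnrhr*, *Ednrb*, *Agtr1a* and *Avpr1a*. The bradykinin receptor *Bdkrb2* (7.41 ± 0.230 CPM per kb), the relaxin receptor *Rxfp1* (4.84 ± 0.976) and *Calcrl* (4.0 ± 0.330) were highest. *Rxfp1* was also the most variable member, with 48.6, 72.8 and 81.1 CPM in the lowest, median and highest sample. Of 49 receptors for lipids, amines, nucleotides and proteases 9 were expressed, led by the thrombin receptor *F2r* (28.0 ± 0.179) and the lysophosphatidic acid receptor *Lpar1* (19.2 ± 1.21). Of 22 adhesion receptors 5 were expressed, led by *Adgra2* (38.6 ± 0.294).

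Secreted proteins stood out by their level. Of 355 listed genes 164 were expressed and 75 had no read, and together they took 38740 CPM ± 417. The share of expressed genes above 32.9 CPM per kb was 25.6% for secreted factors, 8.15% for receptors and 5.52% for transcription factors, against 10% of expressed protein-coding genes by definition. Matrix genes accounted for much of this. The 51 matrix glycoproteins and proteoglycans summed to 15290 CPM ± 273, with 32 of them expressed. *Thbs2* (347 CPM per kb ± 12.6), the proteoglycan *Bgn* (266 ± 6.41), *Fn1* (232 ± 9.12) and *Thbs1* (206 ± 7.11) led. The laminin chain *Lama4*, *Mfap2* and the cartilage proteoglycan *Acan* had no read.

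Collagens were almost as abundant. Of 27 fibrillar and network collagen genes 19 were expressed, with a summed level of 9604 CPM ± 181. The type I chains *Col1a1* (325 CPM per kb ± 9.32) and *Col1a2* (220 ± 5.94) exceeded the basement membrane chain *Col4a1* (92.8 ± 2.36) and the fibrillar chain *Col5a2* (86.8 ± 2.88). *Col4a4* was the member without a read. Among 43 proteases and inhibitors 29 were expressed. The collagen chaperone *Serpinh1* (168 ± 7.99), cystatin C *Cst3* (106.7 ± 5.12) and the procollagen processing enhancer *Pcolce* (105 ± 2.36) were among the 4 highest. *Timp4*, *Serpine2*, *Mmp7* and *Mmp8* had no read.

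Growth factors differed widely between families. In the list of PDGF, VEGF, HGF, IGF and other growth factors 23 of 38 were expressed, and the matricellular proteins *Ccn1* (1325, 1381 and 1461 CPM, 683 CPM per kb) and *Ccn2* (1197, 1242 and 1356 CPM, 398 CPM per kb) exceeded the IGF-binding proteins *Igfbp6* (116 ± 2.86) and *Igfbp7* (57.3 ± 9.05). *Ccn1* and *Ccn2* are known targets of the YAP and TEAD pathway. The IGF-binding proteins *Igfbp1*, *Igfbp2*, *Igfbp3* and *Igfbp5* had no read. Of 40 FGF, EGF and neurotrophin genes 9 were expressed, led by *Fgf7* (24.5 ± 0.721) and *Fgf10* (22.2 ± 1.46), which are mesenchymal signals to epithelia. *Hbegf* (9.05) and *Ereg* (8.98) followed, and 13, *Fgf8* and *Areg* included, had no read. Of 36 genes for Wnt and Hedgehog ligands and their modulators 6 were expressed, led by the modulator *Dkk2* (32.6 ± 1.95) and *Wnt7b* (8.13 ± 0.275), while *Dkk1*, *Sfrp1*, *Sfrp2*, *Rspo1*, *Rspo3* and *Shh* had no read.

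The TGF-β family ligands, to which GDF6 belongs, had 8 of 33 genes expressed and 15 without a read. The activin subunits *Inhbb* (174, 179 and 188 CPM in the lowest, median and highest sample, 41.7 CPM per kb) and *Inhba* (158, 164 and 175 CPM, 23.3 CPM per kb) were highest, followed by *Gdf11* (8.98 ± 0.313) and *Tgfb1* (6.00). No BMP gene other than *Bmp5* was expressed, and *Bmp2*, *Bmp4*, *Bmp7* and the mouse gene *Gdf6* had no read in any EV sample. *Bmp5* was named after its value was seen. Antagonists of BMPs and activins were more frequent, with 9 of 16 expressed. *Twsg1* (39.1 ± 0.719), *Grem1* (35.5 ± 3.75), *Fstl1* (24.7 ± 0.408) and *Fstl3* (23.3) led, and *Nog*, *Chrdl1* and *Sost* had no read.

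Of 48 cytokines and chemokines 22 were expressed and 9 had no read. Osteopontin *Spp1* was highest (1226, 1407 and 1457 CPM, 479 CPM per kb), followed by *Mif* (431 ± 16.0). The chemokines *Ccl5* (184 ± 31.95), *Ccl7* (163 ± 30.9) and *Ccl2* (123 ± 23.1) varied far more between samples, and *Ccl5* had 143, 207 and 216 CPM in the lowest, median and highest sample. *Tnf*, *Il1b* and *Il10* had no read. *Ccl2*, and the interferon genes given further on, were named after their values were seen. Of 15 guidance ligands 7 were expressed and *Sema3a* was the highest (39.9 ± 1.70). Of 20 secretory products of Sertoli cells 6 were expressed, *Inhbb* and *Cxcl12* (3.94 CPM per kb) highest, and transferrin *Trf*, *Cst9*, *Cst12*, *Defb19*, *Bmp4* and *Igfbp3* had no read.

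Ligands and their receptors were set side by side per exonic kb. The pairs were chosen after the levels were seen and are given as a description. Ligand and receptor were both expressed for HGF (*Hgf* 2.94 CPM per kb ± 0.0848 and *Met* 38.0 ± 1.098), for PDGF (*Pdgfa* 4.62 ± 0.157, *Pdgfc* 5.15 ± 0.140, *Pdgfra* 12.4 ± 0.656) and for IL-33 (*Il33* 13.5 ± 1.11 and *Il1rl1* 44.7 ± 2.27). The same held for the activins, whose receptor chains *Acvr2a* (1.89 ± 0.0660) and *Acvr1b* (4.49 ± 0.2496) were expressed, and for LIF (*Lif* 2.49 ± 0.247, *Lifr* 1.46 ± 0.172, *Il6st* 9.21 ± 0.247). *Sema3a* (39.9 ± 1.70 CPM per kb) was expressed with the receptor gene *Plxna1* (19.7 ± 0.773) and with little of the co-receptor *Nrp1* (0.123 ± 0.0351). *Fgf7* and *Fgf10* had 24.5 ± 0.720 and 22.2 ± 1.46 CPM per kb, and their receptor gene *Fgfr2*, also expressed, had 0.386 ± 0.0190. *Cxcl12* had 3.94 ± 0.381 CPM per kb, with no read for its receptor *Cxcr4*, whereas its other receptor *Ackr3* was expressed at 0.503 ± 0.0455. For 2 ligands the receptor named here was below the limit. *Csf1* had 45.6, 46.3 and 48.6 CPM per kb in the lowest, median and highest sample, and its receptor *Csf1r*, a macrophage gene, had 0.0286, 0.0400 and 0.0442. *Kitl* had 3.44 ± 0.0958 CPM per kb, and *Kit* had 1 read in the 6 samples together. Of the receptors, *Axl* had 96.1 ± 1.43 CPM per kb with its ligand *Gas6* below the limit at 0.0618 ± 0.0282, and *Igf1r* had 4.63 ± 0.100 with *Igf1* at 0.640 ± 0.0592 and no read for *Igf2*. Neither the ligand nor the receptor of AMH was expressed (*Amh* 0.134 ± 0.0347 CPM per kb, *Amhr2* 4 reads in all).

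**Figure D3:**
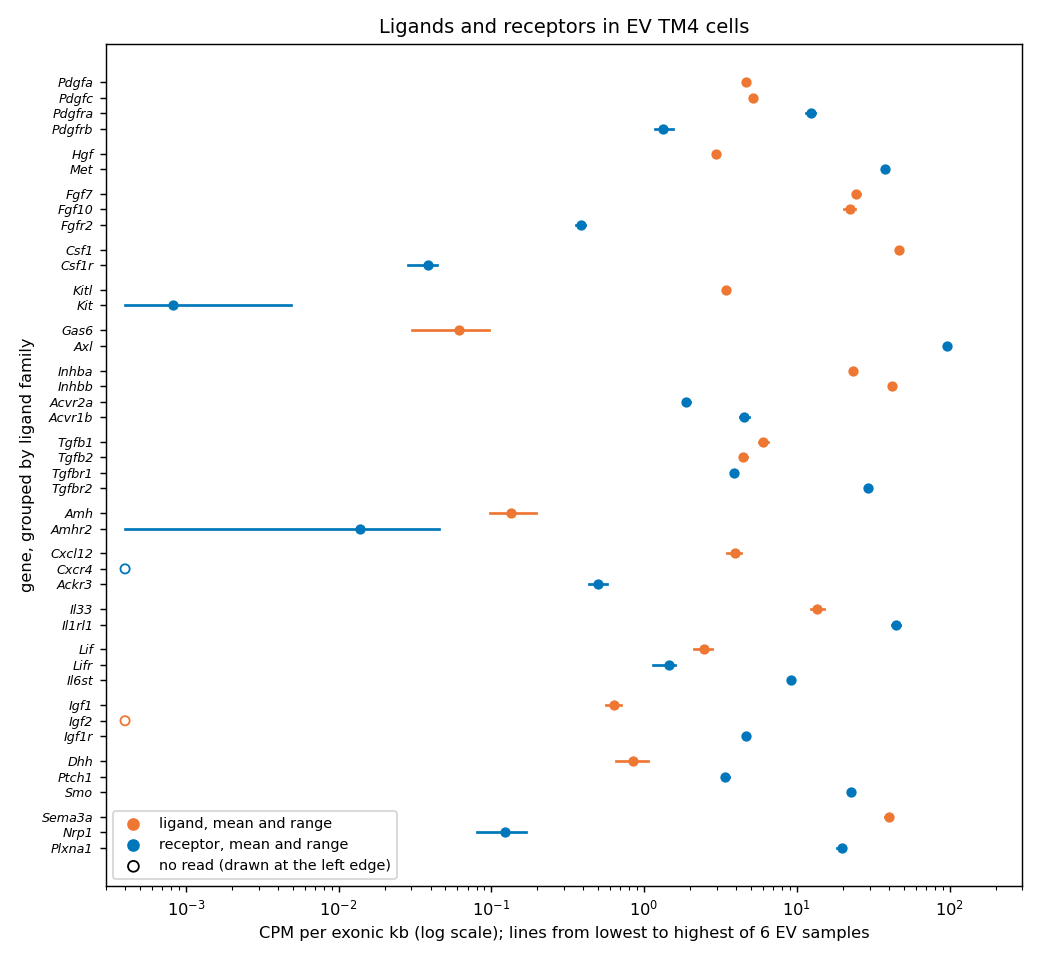
Mean CPM per exonic kb (points) and the range from the lowest to the highest of 6 EV samples (lines) for ligands (orange) and receptors (blue), grouped by ligand family, on a log axis with genes without a read as open circles and ranges that reach 0 drawn to the left edge. *Csf1* lies at 46.6 CPM per kb and *Csf1r* at 0.0383, whereas *Met*, *Pdgfra* and *Il1rl1* lie above the ligands drawn with them.

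The labelled cell type was compared with 26 Sertoli cell markers. Of these, 8 were expressed (30.8%), 9 had reads below the limit and 9 had no read (34.6%). Over all protein-coding genes 48.9% were expressed and 30.4% had no read. The 8 expressed included *Vim*, *Inhbb*, *Gata4*, *Kitl*, *Dhh*, *Sox9* and *Inha*, and of these *Vim* (1699, 1789 and 1914 CPM) made up most of the summed level of 2111 CPM ± 74.9, although vimentin is present in mesenchymal cells in general. Without a read were *Wt1*, *Dmrt1*, *Cldn11*, *Sox8*, *Rhox8*, *Aard*, *Cst9*, *Gata1* and *Defb19*. The list thus went both ways, with *Sox9*, *Gata4*, *Dhh*, *Inha* and *Inhbb* among the 8 expressed and these 9 without a read. Of the expressed ones, *Sox9* (0.419 CPM per kb) and *Inha* (0.218) were low. Both lay below 0.582 CPM per kb, the 0.05 quantile of expressed protein-coding genes, and *Dhh* had 0.847 CPM per kb. *Rhox5* reached 0.285 CPM, *Clu* 0.508, *Amh* 0.223, *Ptgds* 0.0752, and *Tsx*, *Mro* and *Krt18* at most 0.0336 CPM.

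Fibroblast and smooth muscle markers were expressed to a larger share. Of 13 fibroblast and stromal markers 9 were expressed, namely *Col1a1*, *Col1a2*, *S100a4* (94.4 CPM per kb ± 6.02), *Col3a1* (27.0 ± 1.22), *Pdgfra* (12.3 ± 0.656), *Nr2f2*, *Pdgfrb*, *Pdpn* and *Dcn*, with a summed level of 5547 CPM ± 136. *Thy1* and *Tcf21* had no read, and *Fap* and *Lum* had 0.0415 and 0.00645 CPM. Of 11 markers of peritubular myoid and smooth muscle cells 7 were expressed. The actin-binding protein *Tagln* (164, 168 and 169 CPM), smooth muscle actin *Acta2* (180, 185 and 188 CPM) and *Smtn* (111, 112 and 115 CPM) were nearly constant between samples, whereas *Myh11*, the myosin of differentiated smooth muscle, had 0.0276 CPM, and its regulator *Myocd* had 0.0215 CPM.

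Markers of other gonadal lineages were rare. Of 12 granulosa cell markers *Inhba* and *Fst* were expressed, and *Foxl2*, *Cyp19a1*, *Rspo1*, *Nr5a2* and *Irx3* had no read. Of 12 Leydig and steroidogenic markers *Cyp11b1* was expressed (6.66, 7.46 and 8.63 CPM). No read was found for *Cyp11a1*, *Cyp17a1*, *Hsd3b1*, *Hsd3b6*, *Hsd17b3*, *Lhcgr* and *Nr0b1*, which include enzymes of steroid synthesis and the LH receptor. *Star* had 1.07 CPM on average without reaching the limit in every sample. Of 22 germ cell markers *Dnd1* (1.27 CPM ± 0.204) and *Spo11* (1.32 ± 0.124) were expressed at the limit, and the germ cell helicase *Ddx4* had 0.00776 CPM. Of 10 pluripotency markers 9, *Pou5f1*, *Nanog* and *Sox2* included, had no read, and *Esrrb* had 0.0216 CPM.

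Cell types that could be mixed into a culture left little trace. The 16 leukocyte markers summed to 3.29 CPM ± 0.466, most of it *Cd68* (2.15 ± 0.230), with *Ptprc* at 0.0415 CPM and *Adgre1*, *Itgam* and *Cd3e* without a read. The 12 endothelial markers summed to 2.20 CPM ± 0.210, *Egfl7* being the member expressed, and the 16 epithelial markers to 2.94 CPM ± 0.227, *Grhl2* being the member expressed, with *Epcam* at 0 reads and *Cdh1* at 0.0435 CPM. The 9 hepatocyte markers (0.227 CPM in sum), 8 erythroid markers (1.27) and 10 markers of kidney and urogenital tract (1.002) had no expressed member. Some single genes of other lineages were nevertheless high. Nestin *Nes* had 348, 369 and 382 CPM, *Lpl*, a lipase of adipocytes and muscle, had 116, 120 and 121 CPM, and the osteoblast factor *Runx2* had 58.7, 62.2 and 65.7 CPM. Their lists had 3 of 14 (neuron and glia), 2 of 8 (adipocyte) and 2 of 10 (chondrocyte and osteoblast) members expressed, and *Olig2*, *Rbfox3*, *Plin1*, *Pparg*, *Acan* and *Ibsp* had no read. Of 12 skeletal and cardiac muscle markers *Tnnt2* (8.80 CPM ± 0.516) was expressed, and *Myod1* and *Myog* had no read. Over all lists, 39 of 218 lineage markers were expressed and 88 had no read in any EV sample.

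**Figure D4:**
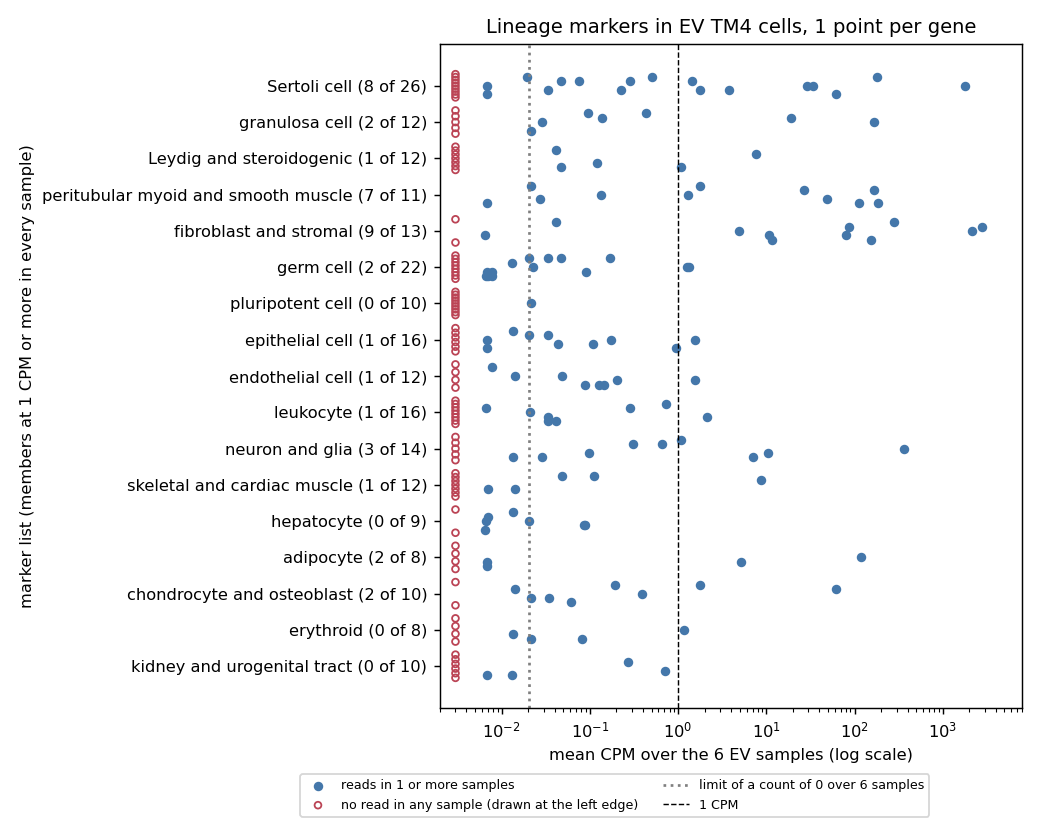
Mean CPM of each lineage marker over the 6 EV samples (log axis), by marker list, with genes without a read as open circles at the left edge and the number expressed of the number listed beside each name. Fibroblast (9 of 13) and smooth muscle (7 of 11) lists have most members right of the dashed line at 1 CPM, and 9 of 26 Sertoli cell markers had no read.

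The TM4 line is of male origin, and genes of the male-specific Y chromosome should therefore be readable. Of 10 listed Y-linked genes, *Ddx3y* and *Eif2s3y* were expressed, at 1.51, 1.95 and 2.28 CPM and at 1.095, 1.30 and 1.62 CPM in the lowest, median and highest sample. *Kdm5d* (0.851, 1.096 and 1.35 CPM) did not reach the limit in every sample, and *Uty* (0.419, 0.555 and 0.674 CPM) was below it throughout. The other 6 genes, *Usp9y*, *Zfy1*, *Zfy2* and *Sry* among them, had no read. Their X-linked partners had far higher levels. The ratio of *Ddx3x* to *Ddx3y* per exonic kb was 407, 462 and 610.0 in the lowest, median and highest sample, that of *Kdm5c* to *Kdm5d* 139, 166 and 216, that of *Kdm6a* to *Uty* 43.6, 49.4 and 66.2, and that of *Eif2s3x* to *Eif2s3y* 86.7, 106 and 131. The X partners were added after these values were seen. *Xist*, the RNA that coats an inactive X chromosome, had at most 4 reads in a sample (0.0579 CPM on average).

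Imprinted genes, which are transcribed from the copy of a single parent, were expressed in part. Of 24 listed 7 were expressed, with *Gnas* (95.1 CPM per kb ± 2.30) and *Peg10* (19.3 ± 1.44) highest, and 8 had no read. *H19* and *Igf2*, neighbours on chromosome 7, both had no read, and from the *Dlk1* and *Meg3* region *Meg3* had no read, *Dlk1* 0.0140, *Rian* 0.00691 and *Mirg* 0.0221 CPM. *Cdkn1c*, *Plagl1*, *Phlda2*, *Zim1* and *Slc22a18* had no read either.

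Genes that drive or restrain cell division were present throughout. All 28 cell cycle genes were expressed, with a summed level of 6625 CPM ± 120. *Cdkn2a*, which encodes the inhibitors p16 and p19ARF, had the highest level per kb of them (187, 196 and 203 CPM, 167 CPM per kb), ahead of cyclin A2 *Ccna2* (114 CPM per kb), cyclin D1 *Ccnd1* (111 ± 6.26) and topoisomerase *Top2a* (102 ± 2.10). *Mki67* had 544, 565 and 606 CPM. *Trp53* had 25.7 CPM per kb, *Cdkn1a*, its target, 2.89 ± 0.722 and *Rb1* 1.30. All 25 cytoskeletal genes (19770 CPM ± 420 in sum), all 17 glycolytic genes (12140 ± 390) and 13 of 14 translation factors (26160 ± 185) were expressed, the neuronal and muscle form *Eef1a2* excepted (0.00677 CPM). The 83 cytosolic ribosomal protein genes summed to 44980 CPM ± 626.

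Interferon-stimulated genes, which respond to foreign nucleic acids among other triggers, were present. All 20 of the 21 listed genes that were found in the table were expressed, with a summed level of 2173 CPM ± 108. *Bst2* had 513, 546 and 576 CPM (451 CPM per kb), *Isg15* 138, 144 and 150 CPM (184 CPM per kb) and *Oasl1* 233, 270 and 280 CPM (99.9 CPM per kb), whereas *Mx1* had 0.588 CPM per kb. The interferon genes themselves were low, *Ifnb1* at 0.123 and *Ifng* at 0.0412 CPM. All samples of the series were transfected, so levels without transfection are not known from these data.

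The 6 EV samples were close to each other. Over the 10059 genes whose mean count reached 100, the median coefficient of variation (CV) was 3.87%, while counting of reads alone gives a median of 2.997%. The CV beyond counting that edgeR estimated over these genes, which it names the biological CV, was 3.16%. A CV above 10% was found for 470 genes (4.67%) and above 20% for 21 genes, and 28.2% of the genes varied by no more than counting noise. Among genes with 10000 or more reads the median CV was 2.25%, against 0.813% from counting. Even so, all 15 pairs of samples differed by more than sampling noise, with a chi-square per degree of freedom between 1.41 (EV replicates 2 and 5) and 6.48 (EV replicates 1 and 5) over 12611 genes. This value is a sum over genes in which abundant genes can weigh heavily. The ribosomal RNA gene *Rn18s-rs5*, for example, had 95671 reads in EV replicate 1 and 43141 in EV replicate 5.

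Among genes whose mean count reached 1000, the 10 with the lowest CV were of several kinds. *Hadha*, a subunit of the mitochondrial fatty acid oxidation enzyme, had between 4164 and 4208 counts after scaling to a common library size (scaled counts), the kinase *Akt1* between 9158 and 9270 and *Babam2* between 1210 and 1223. *Prps2*, *Wbp11*, *Eif5*, *Rps6kb1*, *Mogs*, *Adgra2* and *Stt3a* completed the 10 lowest. Their spread was below that of counting alone, so they are not shown to be more constant than other genes. The 10 genes with the highest CV in excess of counting are given next. *1810014B01Rik* had 46.1, 125 and 213 scaled counts in the lowest, median and highest sample, and a gene without an entry in the annotation used here followed with 128, 283 and 451. The ribosomal RNA gene *Rn18s-rs5*, which poly(A) selection should remove, had 43200 to 57280 scaled counts in 5 samples and 90060 in EV replicate 1, and its CV of 30.0% was 12.4% without that sample. The remaining 7 were *Slc1a3* (312, 502 and 579), a glutamate transporter, *Cdkn1a* (316, 409 and 587), *Snx32*, *Gm26984*, *Ccng2* (929, 1301 and 1749), an atypical cyclin, *Gm15564* and *Slco4a1* (167, 263 and 287).

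Some groups of genes moved as blocks. The 37 mitochondrially encoded genes had a summed level of 12800 CPM in EV replicate 1 and 15020 to 17000 CPM in the others, and the CV of this sum was 9.37% with and 4.97% without EV replicate 1. EV replicate 1 thus had the most 18S ribosomal RNA and the least mitochondrial RNA. In the ratio of long to short genes, EV replicate 3 and EV replicate 6 lay at the ends, with a Spearman correlation across genes between deviation and exonic length of 0.202 and -0.198, and 4 samples between -0.0649 and 0.0679.

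EV replicates 2 and 5 shared extreme values. They held the 2 lowest values in 18.5% of the 10059 genes and the 2 highest in 12.6%, whereas the other 14 pairs held the 2 lowest in 4.28% to 8.58% and the 2 highest in 3.92% to 12.3%. The correlation of their deviations from the gene means was 0.332 across genes, against -0.477 to 0.0800 for the other pairs, which share the same means. This pair was noticed in these values, and the labels give no difference between the 6 samples. Cytokines and chemokines, interferon-stimulated genes and peptide hormone receptors were lowest in these samples. Of 43 lists with a sum of at least 10 CPM, 16 had their 2 lowest sums in this pair and 6 their 2 highest. The cytokine and chemokine list summed to 2243 and 2216 CPM in EV replicates 2 and 5 and to 2604 to 2658 CPM in the other 4 samples, without overlap. The interferon-stimulated genes summed to 2030 and 2041 CPM against 2224 to 2263 CPM, and the hormone and peptide receptors to 123 and 119 CPM against 149 to 160.0 CPM. Much of the latter difference lay in *Rxfp1*, with 51.8 and 48.6 CPM against 72.3 to 81.1 CPM, and 3 of the 5 members whose mean count reached 100 had their 2 lowest values in the pair. Of the 19 interferon-stimulated genes whose mean count reached 100, 15 had their 2 lowest values in this pair, *Isg15*, *Bst2*, *Irf7* and *Oasl1* included. The same held for 8 of 18 cytokine and chemokine genes, among them *Ccl2*, *Ccl5*, *Ccl7*, *Cxcl10* and *Spp1*. In contrast, 11 of 28 cell cycle genes, among them *Ccna2*, *Ccnd1*, *Cdk1*, *Pcna* and *Mcm2*, had their 2 highest values there, and so did 9 of 25 cytoskeletal genes with *Actb* and *Vim* and 6 of 13 translation factors. The summed cell cycle genes had 6729 and 6819 CPM in the pair and 6521 to 6572 CPM in the others. Without EV replicates 2 and 5 the CV of the cytokine sum was 1.24% in place of 8.78%. That of the interferon-stimulated sum was 1.12% in place of 5.26%, and that of the hormone receptor sum 3.33% in place of 12.03%. The pair and these lists were chosen after their values were seen, so a lower CV without the pair follows from the choice.

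**Figure D5:**
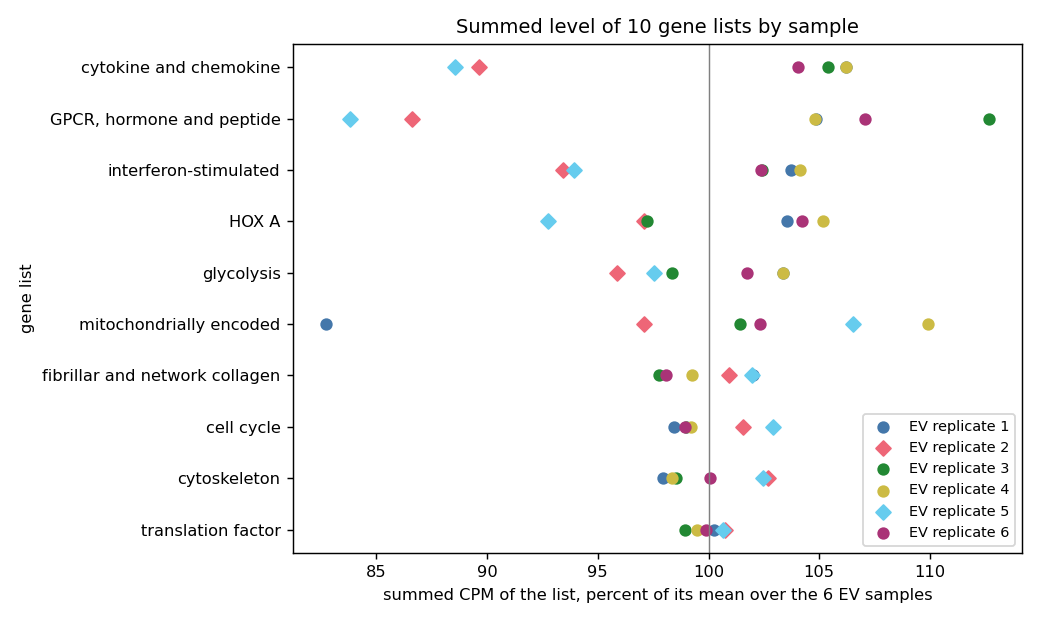
Summed CPM of 10 gene lists in each EV sample as a percentage of the mean of the list over the 6 samples, with EV replicates 2 and 5 as diamonds. The diamonds are the 2 lowest points for cytokines, hormone receptors and interferon-stimulated genes and the 2 highest for cell cycle genes, and EV replicate 1 is lowest for mitochondrially encoded genes.

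The spread differed between gene lists, and part of it was counting noise. Among lists with at least 5 members above a mean count of 100, the median CV was highest for cytokines and chemokines (9.22%, 18 genes, counting alone 4.24%). Hormone and peptide receptors followed (8.49%, 5 genes, counting alone 4.60%), where *Rxfp1* reached 20.4%. In excess of counting, the medians were 7.72% for cytokines and 7.13% for hormone receptors, against 2.07% over all genes. The median CV was lowest for peritubular myoid and smooth muscle markers (1.59%, 5 genes), below the 1.92% that counting alone gives. Translation factors followed (1.73%, 13 genes, counting alone 0.52%), and all genes together had 3.87% (counting alone 2.997%). The highest CV of a list was that of *Cdkn1a* among cell cycle genes (25.1%), *Tnxb* among matrix genes (21.5%), *Igfbp7* among growth factors (16.1%) and *Dcn* among fibroblast markers (12.4%). These 4 were named after their values were seen.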

How the data were processed

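RNA-Seq was performed on TM4 cells with stranded, poly(A)-selected libraries and UMI adaptors. The authors deposited raw counts per Ensembl gene. Reads were demultiplexed with bcl2fastq 2.20.0.422, mapped with STAR 2.7.10a to GRCm39, deduplicated with UMI-tools and counted with featureCounts 2.0.3, which kept uniquely mapped reads on the gene's strand and discarded reads that overlapped several genes. Of 16 columns the 6 EV columns were used, with 21486850 to 25844048 counts each.

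Counts were divided by the total of each sample (CPM) and by the union of a gene's exons from a GENCODE annotation of GRCm39. This is not the release used for counting, 731 identifiers had no entry in it, and a union of exons can exceed the transcript a cell makes. The spread was computed on counts scaled by TMM factors of edgeR 4.0.16 (R 4.3.3), beside the CV that Poisson counting gives, and both steps were tested on simulated data. No groups were compared. Pairs of samples were compared by the chi-square per degree of freedom, and the most extreme sample by the ratio of Dixon. Of 1301 list symbols 1299 matched. The lists were chosen with earlier results of these data known. Named were the 20 highest genes by CPM and by CPM per kb, the 4 highest members of each list of transcription factors, receptors and secreted factors, list members without a read, any lineage or composition marker, and the 10 genes of highest (excess CV, mean count of at least 100) and lowest spread. Exceptions are stated, and some members of these lists are not reported here. Alternatives covered scaling (TMM, DESeq2 1.42.0 size factors), limits, gene length and samples left out.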

Additional observations from a re-analysis of the deposited data

Results flagged for a closer look

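Within the 6 EV samples, the gap between the most extreme sample and its nearest neighbour was compared with the whole range, for 265 quantities (the total counts, 52 list sums and 212 expressed genes named above). The gap exceeded the 95% critical value of Dixon for 6 samples in 8 of them. Chance alone gives 1 in 20, but the quantities overlap and some genes were named for their spread. The gap is also small where 2 samples deviate together, as EV replicates 2 and 5 did. The number flagged is therefore not compared with chance. EV replicate 1 accounted for 5 of the 8. It was the highest sample for *Rn18s-rs5* (3702 CPM, next 2373), for the long non-coding RNA *Gm15564* (32.5 CPM, next 23.3) and for the summed mesenchymal transcription factors (1187 CPM, next 1150). It was the lowest for *mt-Nd2* (818 CPM, next 950.5) and for *Zfpm2* (113 CPM, next 117). The summed KLF genes were lowest in EV replicate 2 (440.0 CPM, next 447), *Igfbp6* was lowest in EV replicate 3 (152 CPM, next 161), and *Gata4* was highest in EV replicate 4 (34.2 CPM, next 33.8).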

How the results depend on the processing

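Of 84 alternative values, 70 stayed within a set limit. The limit was 1.5 times for counts and for the CV of single genes or sums. For the share of reads it was the SD between samples. For the median CV it was the SD of the medians with each replicate left out in turn (0.0557). Some alternatives, such as leaving out EV replicates 2 and 5, were added after the values were seen. Expressed genes numbered 11213, and 11229 to 11238 when each replicate was left out in turn, with 181 transcription factors, 135 to 137 receptors and 164 to 165 secreted factors. The share of reads on the 100 most abundant genes (16.54%) ranged from 16.52% to 16.58% and was 15.85% without mitochondrially encoded genes. Lineage markers without a read (88) ranged from 90 to 94, and 136 had less than 1 read per sample on average. The median CV (3.87%) ranged from 3.74% to 3.88% and was 4.63% with a minimum mean count of 10, 2.93% with a minimum of 1000 and 3.32% without EV replicates 2 and 5, an alternative chosen after seeing the data that also has fewer samples. Of the 20 highest genes per kb, 16 were shared when the longest transcript and 10 when the coding length replaced the union of exons. With coding length *S100a6* was first at 5823 CPM per kb, in place of *mt-Co1*. No paired analysis was possible because the results come from no test between groups. Depth limits genes without a read to an upper level of 0.0207 CPM.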
